A study of Homo sapiens with 19 samples.

Results

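Superenhancer positions were compared between the parental culture 231Pa, of the human line MDA-MB-231, and MDA-MB-436_Luc2, a luciferase-marked culture of the human line MDA-MB-436. Both lines are established models of triple-negative breast cancer, which lacks the estrogen and progesterone receptors and HER2 amplification. The 231Pa set joined the regions that the authors listed for 231Pa but not for its metastatic clone 231-D (the 231Pa-only list, 158 regions) with those listed as common to 231Pa and 231-D (183 regions). The MDA-MB-436_Luc2 set joined the regions specific to MDA-MB-436_Luc2 (97) with those common to MDA-MB-436_Luc2 and No3a, a polyclonal ex vivo culture of its xenograft (324). Regions listed for 231-D alone or for No3a alone were left out. The 2 sets held 341 and 421 regions, together 762 of the 1958 regions in the 8 superenhancer lists of the series. A region counted as shared when it overlapped a region of the other line by 1 bp or more, and as private otherwise. A MDA-MB-436_Luc2 region that meets only a region listed for 231-D alone is therefore private here. Common regions are merged from the calls of 2 cell populations. An overlap, and its bases, can thus lie in a part called only in 231-D or No3a and still count as shared.

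H3K27 acetylation marks active enhancers and promoters, and superenhancers are long stretches in which such enhancers lie densely together. They are known for lying near genes that set the identity of a cell and, in cancer cells, near oncogenes. The 2 lines were derived from different patients' tumours.

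Chromatin of each line was precipitated with 5 µg of an antibody against H3K27ac in 2 replicate samples, 4 samples in all, and each line had 1 input sample. 231Pa carried no transgene, whereas MDA-MB-436_Luc2 carried luciferase. The MDA-MB-436_Luc2 cells grew in RPMI-1640, and the labels give DMEM for the transgenic derivatives of 231Pa without naming the medium of 231Pa itself. Line, transgene and medium cannot be told apart in this comparison. The same holds for whatever the leading numbers in the list names stand for, which differ between the lines and are not explained. The deposited values are positions merged over the replicates, without read counts, heights or scores, so the depth is unknown and no value exists per replicate. No difference below could be tested against replicate error. Intervals of shares are exact (Clopper-Pearson) 95% intervals, intervals of medians are 95% binomial intervals of the middle rank, and both cover counting error over regions only.

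The 2 lines covered nearly the same length of genome with different numbers of regions. The 341 regions of 231Pa covered 44.6 Mb, and the 421 regions of MDA-MB-436_Luc2 covered 44.2 Mb. The 231Pa regions were wider, with a median of 115 kb (interval 107 to 124) against 93.7 kb (interval 85.8 to 101). The middle 50% of widths ran from 76.5 to 165 kb in 231Pa and from 63.1 to 132 kb in MDA-MB-436_Luc2. The widest region of both sets was one of MDA-MB-436_Luc2, with 565 kb, and the widest of 231Pa measured 508 kb. As an outside measure of the same parental line, 231Pa carrying luciferase and GFP (231Pa_Luc+GFP, called separately in hg38) had 337 regions over 40.3 Mb with a median of 105 kb (interval 97.9 to 113). The common lists are unions of the calls of 2 cell populations, which widens their regions by construction. Among single calls, the median was 102 kb in the 231Pa-only list (interval 88.1 to 113) and 88.6 kb in the list specific to MDA-MB-436_Luc2 (interval 73.5 to 104), and these intervals overlapped.

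Most superenhancers of either line were private. Of the 341 regions of 231Pa, 112 overlapped a region of MDA-MB-436_Luc2 (32.8%, interval 27.9 to 38.1%) and 229 did not. Of the 421 regions of MDA-MB-436_Luc2, 119 overlapped a region of 231Pa (28.3%, interval 24.0 to 32.8%) and 302 did not. The bases covered in both lines came to 12.7 Mb, which was 28.5% of the 231Pa set, 28.7% of the MDA-MB-436_Luc2 set and 16.7% of the 76.1 Mb covered by either. Private regions held 27.4 Mb of 231Pa and 28.9 Mb of MDA-MB-436_Luc2. The shared regions themselves were covered by the other line over 73.6% of their bases in 231Pa and 83.0% in MDA-MB-436_Luc2.

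The smallest overlap was 7.56 kb, at hg19 chromosome 5, where a MDA-MB-436_Luc2 region (148288374 to 148295937) lay whole inside a 231Pa region (148266504 to 148459490). The closest pair without overlap lay 23.5 kb apart on chromosome 12 (231Pa 12823652 to 12995999, MDA-MB-436_Luc2 13019481 to 13081283). No pair fell between these values. The median distance from a private region to the nearest region of the other line was 3755 kb for 231Pa and 1845 kb for MDA-MB-436_Luc2. Both sets are sparse: gaps between neighbouring regions of the same set had medians of 3508 kb in 231Pa and 1524 kb in MDA-MB-436_Luc2. Shared regions overlap the other line and so have no such distance to set beside these. The part of the spacing of the sets in the distances was not tested. Within 50 kb lay 3 of the 229 private 231Pa regions (1.31%) and 11 of the 302 private MDA-MB-436_Luc2 regions (3.64%). More than 1 Mb away lay 175 private 231Pa regions (76.4%) and 194 private MDA-MB-436_Luc2 regions (64.2%), and another 9 of MDA-MB-436_Luc2 were on a chromosome without any 231Pa region.

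Regions of 231Pa that its metastatic clone also had were shared with MDA-MB-436_Luc2 more often than the others. Of the 183 regions common to 231Pa and 231-D, 94 overlapped MDA-MB-436_Luc2 (51.4%, interval 43.9 to 58.8%). Of the 158 regions of the 231Pa-only list, 18 did (11.4%, interval 6.89 to 17.4%). In bases, 40.5% of the common list and 9.47% of the 231Pa-only list were covered in MDA-MB-436_Luc2. The order was the same on 20 of the 21 chromosomes with regions of both lists, and on X, the exception, neither list had a shared region. On chromosome 1, 18 of 28 common regions and 3 of 14 regions of 231Pa alone were shared. On chromosome 11 the counts were 10 of 16 and 0 of 6, on chromosome 8 they were 4 of 9 and 0 of 12, and on chromosome 2 they were 4 of 9 and 4 of 22. Chromosome 9 came closest to equality, with 3 of 7 and 2 of 5.

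Common regions were wider, and width went with sharing, so both lists were set side by side within quartiles of width. Over the whole 231Pa set the shared part rose from 20.0% (17 of 85) in the narrowest quartile through 29.4% and 40.0% to 41.9% (36 of 86) in the widest. In the narrowest quartile, of regions below 76.5 kb, 38.7% of common regions were shared (12 of 31, interval 21.8 to 57.8%) against 9.26% of 231Pa-only regions (5 of 54, interval 3.08 to 20.3%). In the second, 44.2% (19 of 43, interval 29.1 to 60.1%) stood against 14.3% (6 of 42, interval 5.43 to 28.5%). In the third, 61.2% (30 of 49, interval 46.2 to 74.8%) stood against 11.1% (4 of 36, interval 3.11 to 26.1%). In the widest, 55.0% (33 of 60, interval 41.6 to 67.9%) stood against 11.5% (3 of 26, interval 2.45 to 30.2%). The intervals of the 2 lists did not overlap in any of the 4 quartiles, and the 231Pa-only list showed no rise with width.

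**Figure D1:**
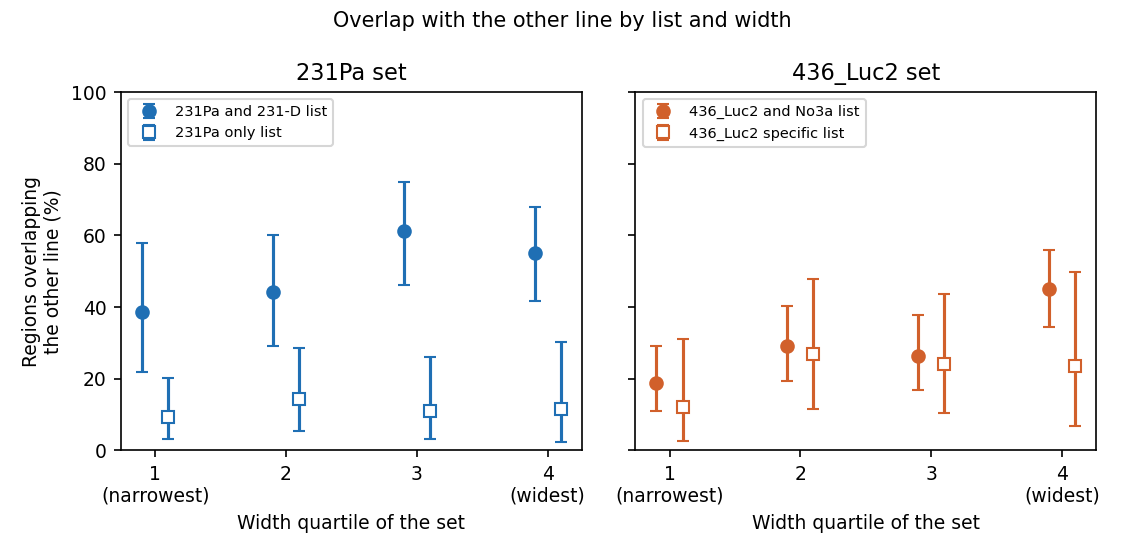
Share of regions overlapping the other line (percent, vertical axis) by width quartile of the set (horizontal axis), for 231Pa on the left and MDA-MB-436_Luc2 on the right; filled circles are the common lists, open squares the lists specific to the parental line, and bars exact 95% intervals. In 231Pa the common list stands at 38.7 to 61.2% and the 231Pa-only list at 9.26 to 14.3%, while the intervals of both MDA-MB-436_Luc2 lists overlap in every quartile.

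In MDA-MB-436_Luc2 the lists stood closer together. Of the 324 regions common to MDA-MB-436_Luc2 and No3a, 98 overlapped 231Pa (30.2%, interval 25.3 to 35.6%), and of the 97 regions specific to MDA-MB-436_Luc2, 21 did (21.6%, interval 13.9 to 31.2%), so the intervals overlapped. In bases the shares were 31.0% and 20.2%. The shared part of the whole MDA-MB-436_Luc2 set was 17.1% (18 of 105) in the narrowest quartile of width, 28.6% and 25.7% in the middle quartiles, and 41.5% (44 of 106) in the widest. Within the common list the widest quartile reached 44.9% (40 of 89), against 18.8% (15 of 80) in the narrowest. The few common regions merged from 3 calls in MDA-MB-436_Luc2 and No3a were mostly shared: 8 of 10, with a median width of 313 kb.

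The lists were also set against each other. Of the 119 overlapping pairs, 86 joined a region common to 231Pa and 231-D with a region common to MDA-MB-436_Luc2 and No3a, and these pairs held 9.69 Mb of the 12.7 Mb shared. Of the 183 regions common to 231Pa and 231-D, 45.4% met the common list of MDA-MB-436_Luc2 (83 regions, interval 38.0 to 52.9%) and 7.10% met its specific list (13 regions). Of the 158 regions of 231Pa alone, 7.59% met the common list (12 regions) and 3.80% met the specific one (6 regions, interval 1.41 to 8.08%). From the side of MDA-MB-436_Luc2, 15.5% of its specific regions met a common region of 231Pa (15 of 97) and 6.19% met a region of 231Pa alone (6 of 97). The lists differ in size, with 27.3 Mb in the common list of 231Pa and 17.3 Mb in the 231Pa-only list, and with 35.0 Mb in the common and 9.21 Mb in the specific list of MDA-MB-436_Luc2. The counts of pairs move with these sizes, and the part of list size in them was not tested.

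The 6 pairs in which both regions were single calls of the parental lines carry no widening by a union. The largest lay on hg19 chromosome 21, where the 231Pa region (36505821 to 36701675, 196 kb) and the MDA-MB-436_Luc2 region (36499729 to 36639153, 139 kb) had 133 kb in common. On chromosome 17 a 231Pa region of 107 kb (55926493 to 56033883) lay whole inside a MDA-MB-436_Luc2 region of 186 kb (55900079 to 56085938). On chromosome 7 the nesting ran the other way, with a MDA-MB-436_Luc2 region of 70.8 kb (131268235 to 131339076) inside a 231Pa region of 164 kb (131176537 to 131340561). The other 3 pairs lay on chromosomes 1, 3 and 2 and shared 71.8, 63.9 and 39.1 kb. The 231Pa region was the wider in 2 of the 6.

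Where the lines overlapped, they usually overlapped in depth. The 119 pairs formed 112 separate loci, of which 106 joined 1 region of each line. In 5 loci a 231Pa region spanned 2 regions of MDA-MB-436_Luc2 and in 1 locus it spanned 3; no MDA-MB-436_Luc2 region met more than 1 region of 231Pa. The median length shared per pair was 90.5 kb. Taken separately, the median covered part was 82.3% of the 231Pa region and 99.8% of the MDA-MB-436_Luc2 region. In 86 pairs the shared part was at least 50% of both regions, and in 43 pairs at least 80% of both. The MDA-MB-436_Luc2 region lay whole inside the 231Pa region in 53 pairs (44.5%), the reverse held in 20, and 46 pairs were staggered. The 231Pa region was the wider in 77 pairs (64.7%), and the median ratio of widths was 1.10. A 231Pa region that spanned 2 or 3 regions of MDA-MB-436_Luc2 enters these pair counts 2 or 3 times. It was the wider in each such pair.

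**Figure D2:**
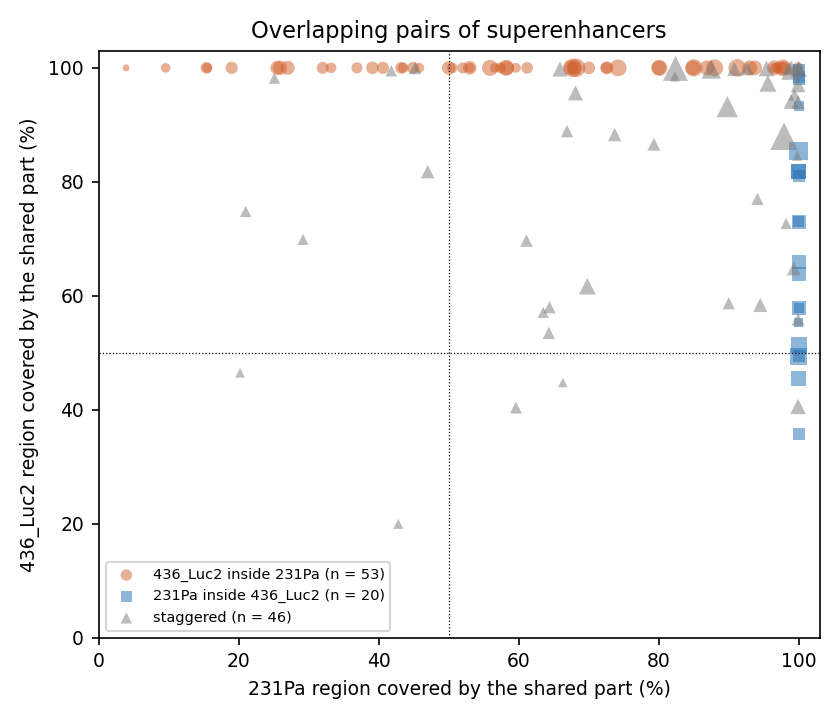
Each point is 1 of the 119 overlapping pairs; the horizontal axis gives the percentage of the 231Pa region and the vertical axis the percentage of the MDA-MB-436_Luc2 region covered by the shared part, larger symbols share more bases, and dotted lines mark 50%. The 53 pairs with the MDA-MB-436_Luc2 region inside the 231Pa region lie along the top edge, the 20 reverse cases along the right edge, and 86 pairs lie in the upper right field.

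Some edges of paired regions lay close together. In 31 pairs the starts lay within 1 kb of each other and in 25 pairs the ends did. At least 1 edge lay within 1 kb in 50 of 119 pairs (42.0%), and both edges did in 6. The median difference was 12.1 kb between starts and 19.9 kb between ends. Exactly 1 edge lay within 1 kb in 44 pairs.

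The largest overlap lay on the long arm of chromosome 20, where the widest regions of both sets met. There the 231Pa region (hg19 48703654 to 49211442, 508 kb) and the MDA-MB-436_Luc2 region (48635941 to 49200560, 565 kb) shared 497 kb, 97.9% and 88.0% of their widths. The next lay on the long arm of chromosome 8, with 404 kb shared by a 231Pa region of 490.0 kb (128806052 to 129296065) and a MDA-MB-436_Luc2 region of 404 kb (128805779 to 129209768), whose starts were 273 bp apart. On the short arm of chromosome 2, regions of 322 kb (47027584 to 47349552) and 310.3 kb (47006525 to 47316839) shared 289 kb. The tightest match of these largest pairs was on the short arm of chromosome 4, where regions of 239 kb (7750710 to 7989513) and 237 kb (7753357 to 7990380) shared 236 kb, with ends 867 bp apart. On the long arm of chromosome 10, regions of 267 kb (112063249 to 112330128) and 234 kb (112062665 to 112296662) shared 233 kb, with starts 584 bp apart.

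The other 5 of the 10 largest pairs lay on chromosomes 3, 8, 1, 15 and 3 and shared from 216 down to 184 kb. In the first of them, on the short arm of chromosome 3, the 231Pa region (11176510 to 11392521) lay whole inside the MDA-MB-436_Luc2 region (11176123 to 11428918). In the other 4, the MDA-MB-436_Luc2 region lay whole inside that of 231Pa. The 10 largest pairs together held 2.67 Mb, 21.0% of all shared bases, and in 9 of them both regions came from the common lists. The exception was the pair of 211 kb on chromosome 8, whose MDA-MB-436_Luc2 region (118823001 to 119034367) was specific to the parental culture.

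Shared regions were wider than private ones in both lines. In 231Pa the median was 127 kb for the 112 shared regions (interval 121 to 150.2) and 106 kb for the 229 private ones (interval 96.2 to 115), a difference of 20.9 kb and a ratio of 1.20. In MDA-MB-436_Luc2 the medians were 112 kb (interval 93.8 to 124, n = 119) and 86.2 kb (interval 79.7 to 96.6, n = 302), a difference of 25.6 kb and a ratio of 1.30. The intervals did not overlap in 231Pa and overlapped in MDA-MB-436_Luc2. Width enters an overlap by construction. Within single lists the difference kept its direction and was smaller in 3 of the 4: 15.7 kb in the common and 8.31 kb in the 231Pa-only list, and 12.3 kb in the list specific to MDA-MB-436_Luc2, against 31.5 kb in the common list of MDA-MB-436_Luc2. The 231Pa difference was 12.3 kb with a reciprocal overlap of at least 50% and 7.37 kb among the widest 50% of regions. Under the same rules the MDA-MB-436_Luc2 difference was 35.3 kb, larger than before, and 23.5 kb. In each of the 4 lists the intervals of the shared and private medians overlapped.

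**Figure D3:**
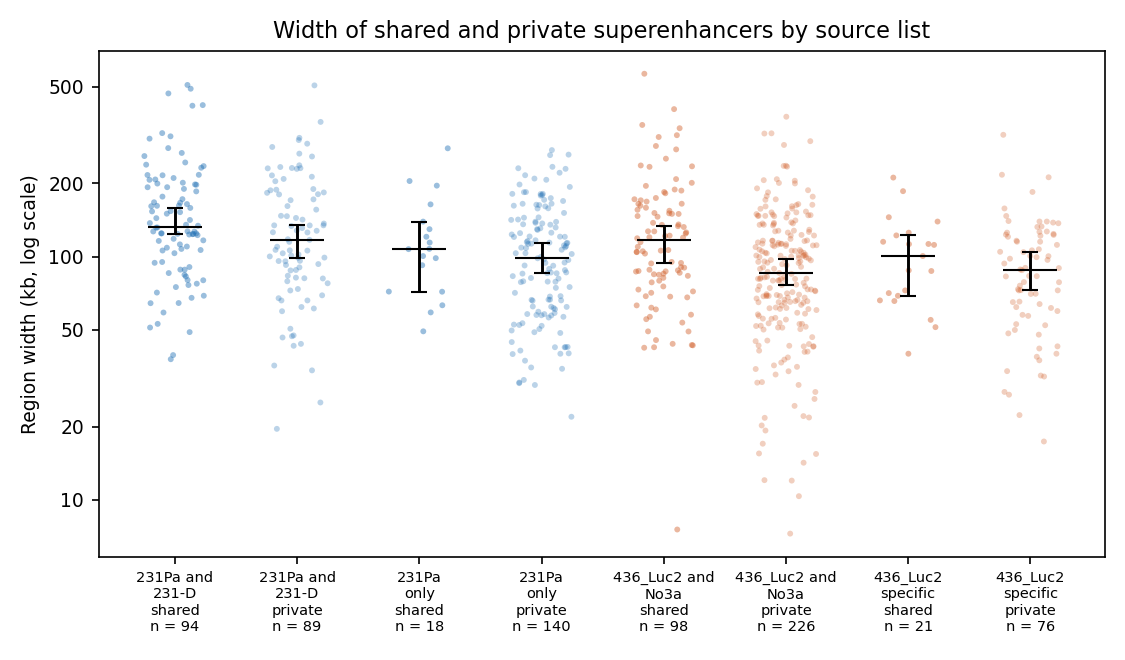
Width of every region (kb, log axis) by source list and by overlap with the other line, 231Pa in blue and MDA-MB-436_Luc2 in orange; black bars give medians with 95% intervals and n counts regions. Shared regions have the higher median in each list, from 133 against 117 kb in the common list of 231Pa to 101 against 88.3 kb in the list specific to MDA-MB-436_Luc2, with wide overlap of the points.

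The widest private 231Pa region lay on the short arm of chromosome X (hg19 12947256 to 13453005, 506 kb), 26.5 Mb from the nearest region of MDA-MB-436_Luc2. Next came a region of 358 kb on the short arm of chromosome 11 (11953084 to 12311038), merged from 4 calls of 231Pa and 231-D, and one of 308 kb on the long arm of chromosome 11 (86166149 to 86473970). The 10 widest private 231Pa regions measured 261 to 506 kb, 7 of them were also present in 231-D, and 9 lay more than 1 Mb from any MDA-MB-436_Luc2 region. The exception, on the short arm of chromosome 2 (37759359 to 38060898, 302 kb), was 0.934 Mb away.

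In MDA-MB-436_Luc2 the widest private region lay on the long arm of chromosome 5 (172124172 to 172500139, 376 kb), 0.219 Mb from a 231Pa region. Then came regions of 321 kb on the short arm of chromosome 7 (5434767 to 5756085) and on the short arm of chromosome 6 (26155147 to 26475785), the latter only 27.1 kb from a region of 231Pa. A second region on the short arm of chromosome 6 (27637145 to 27871602, 234 kb) also ranked among the 10. The widest one of the specific list was on the short arm of chromosome 19 (18384571 to 18701384, 317 kb). The 10 widest measured 217 to 376 kb, 8 were also present in No3a, and 7 lay more than 1 Mb from any 231Pa region.

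By share of regions per chromosome arm, the sets differed most on 6p, and by share of bases on 10p. Regions of either set lay on 41 arms, and on 38 of them both lines had regions. The 231Pa set had 23 of its regions on 6p (6.74%, interval 4.32 to 9.95%) and the MDA-MB-436_Luc2 set 9 (2.14%, interval 0.982 to 4.02%). Of these, 6 regions of each line were shared, and 17 of 231Pa and 3 of MDA-MB-436_Luc2 were private. It was the only arm whose intervals did not overlap, 1 of 41 or 2.44%, which is a small share of the arms examined. On 10p, 231Pa had 13 regions (3.81%) and MDA-MB-436_Luc2 3 (0.713%), and all 3 of the latter were shared. By bases, 10p held 3.85% of the 231Pa set and 0.673% of the MDA-MB-436_Luc2 set, and 6p held 5.53% and 3.08%. On 3q the counts were 16 (4.69%) and 11 (2.61%), with 3 shared in each line.

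In the other direction, 1q held 35 regions of MDA-MB-436_Luc2 (8.31%, interval 5.86 to 11.4%) and 18 of 231Pa (5.28%, interval 3.16 to 8.21%). Of the MDA-MB-436_Luc2 regions on 1q, 26 were private, the most on any arm. On 17p the counts were 12 (2.85%) and 2 (0.587%), and on 15q 16 (3.80%) and 6 (1.76%). Arms with regions of 1 line alone were 18q, with 3 of 231Pa, and 16p and 16q, with 5 and 4 of MDA-MB-436_Luc2.

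**Figure D4:**
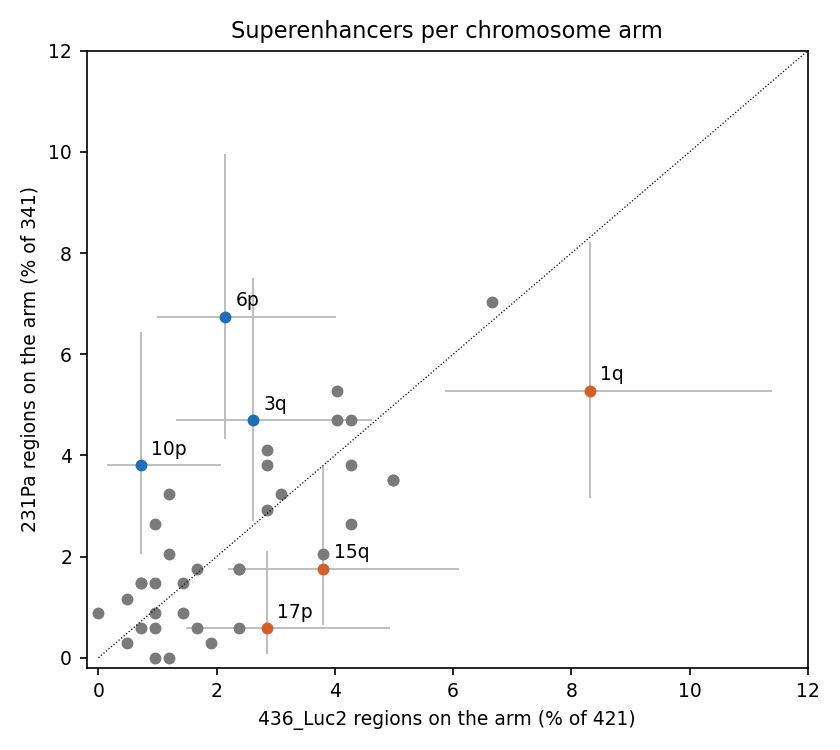
Share of a set's regions on each chromosome arm, MDA-MB-436_Luc2 on the horizontal and 231Pa on the vertical axis (percent of all regions of the set); the dotted line marks equal shares, and the 3 arms that differ most in each direction are named with exact 95% intervals. Arm 6p lies farthest above the line, with 6.74 against 2.14%, and 1q farthest below it, with 5.28 against 8.31%.

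Sharing was spread over 31 arms. Among arms with at least 10 regions of 231Pa, the shared part was highest on 20q (7 of 13, 53.8%, interval 25.1 to 80.8%) and was 50.0% on 1p (12 of 24), 1q (9 of 18), 10q (6 of 12), 11q (8 of 16) and 17q (7 of 14). It was lowest on 14q, with 1 of 11 (9.09%, interval 0.230 to 41.3%). The intervals of the highest and the lowest arm overlapped. On 7 arms both lines had regions and none was shared: 4q with 7 of 231Pa and 5 of MDA-MB-436_Luc2, 8p with 9 and 4, 13q with 2 and 4, 19p with 2 and 10, 20p with 5 and 3, Xp with 4 and 2 and Xq with 2 and 3.

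Some long stretches held regions of 1 line alone. The longest with at least 3 successive regions ran over 94.0 Mb of 4q (hg19 75543008 to 169587881), with 6 regions of 231Pa and none of MDA-MB-436_Luc2. The next covered most of chromosome 16 (3006491 to 89398506, 86.4 Mb), with 9 regions of MDA-MB-436_Luc2. Chromosome 8 had a run of 13 private 231Pa regions, the most in any stretch, which together covered 1726 kb (29346830 to 102219861, 72.9 Mb). The next ones were 5 regions of 231Pa on chromosome X (45288219 to 106204110) and 3 on 18q (21067930 to 74860292). In all, 23 such stretches held 114 of the 229 private 231Pa regions, and 37 held 171 of the 302 private MDA-MB-436_Luc2 regions.

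The same shares were set beside those of 231Pa_Luc+GFP, by chromosome name alone since its list is in hg38. To match the chromosome shares of 231Pa to those of MDA-MB-436_Luc2, 16.8% of regions would have to lie on another chromosome. Between 231Pa and 231Pa_Luc+GFP the figure was 14.7%, and between MDA-MB-436_Luc2 and 231Pa_Luc+GFP it was 14.3%. On none of the 23 chromosomes (0 of 23) did the intervals of 231Pa and MDA-MB-436_Luc2 fail to overlap.

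The shares of single chromosomes quoted here were chosen after they were seen, and their intervals overlapped between 231Pa and MDA-MB-436_Luc2. Chromosome 6 held 8.50% of 231Pa and 8.01% of 231Pa_Luc+GFP regions against 4.51% of MDA-MB-436_Luc2. Chromosome 14 held 3.23% and 4.45% against 1.19%. Chromosome 15 held 1.76% and 1.48% against 3.80%, and chromosome 16 held 0 regions of 231Pa and 1 of 231Pa_Luc+GFP against 9 of MDA-MB-436_Luc2. Chromosome 19 held 0.880% of 231Pa regions (3), 3.56% of 231Pa_Luc+GFP (12) and 4.28% of MDA-MB-436_Luc2 (18). On chromosomes 1, 3 and 12, too, 231Pa_Luc+GFP lay nearer to MDA-MB-436_Luc2 than to 231Pa. In the order 231Pa, 231Pa_Luc+GFP and MDA-MB-436_Luc2, they held 12.3, 17.8 and 15.0%, then 7.92, 4.45 and 5.70%, then 2.64, 4.75 and 5.46%. The chromosomes quoted are not all those on which 231Pa_Luc+GFP lay nearer to MDA-MB-436_Luc2. The 2 MDA-MB-231 populations lay on the same side of MDA-MB-436_Luc2 on 16 of the 23 chromosomes. Both sides are taken from the same MDA-MB-436_Luc2 share, which by itself favours agreement, and no reference was made for this count.

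**Figure D5:**
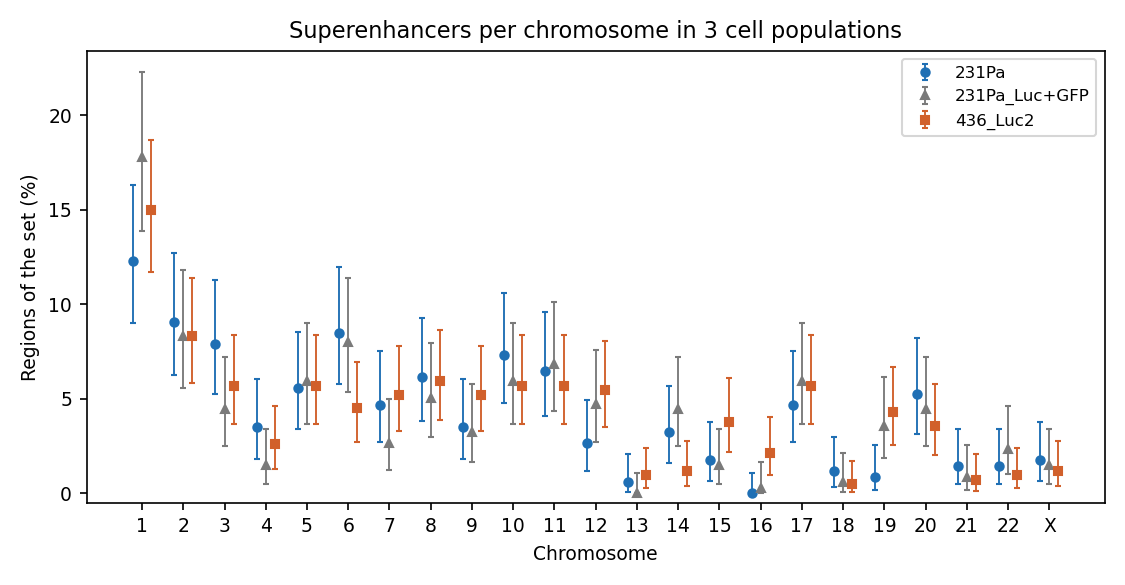
Share of each set's regions per chromosome (percent, vertical axis) for 231Pa, 231Pa_Luc+GFP and MDA-MB-436_Luc2, with exact 95% intervals. The MDA-MB-231 populations lie close together on chromosomes 6 and 15 (8.50 and 8.01%, 1.76 and 1.48%). On chromosome 19, 231Pa_Luc+GFP lies nearer to MDA-MB-436_Luc2 (3.56 and 4.28%) than to 231Pa (0.880%). On chromosome 1 it also lies nearer to MDA-MB-436_Luc2 (17.8 and 15.0%) than to 231Pa (12.3%).

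OCT-2, the POU-domain factor encoded by POU2F2 and best known from B lymphocytes, was mapped by the authors in the clone 231-D, and its 917 peaks are a readout that did not enter the choice of regions. They were not measured in either parental line. Of the 112 shared 231Pa regions, 38 held a peak (33.9%, interval 25.3 to 43.5%), and of the 229 private ones, 41 did (17.9%, interval 13.2 to 23.5%). The densities were 2.84 and 1.75 peaks per Mb, and 3.15 per Mb in the bases covered in both lines, which held 40 peaks. In MDA-MB-436_Luc2, 29.4% of shared regions (35 of 119) and 15.9% of private ones (48 of 302) lay over a peak position of 231-D. Their densities were 2.68 and 1.94 peaks per Mb, and they were not split by width or list.

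In 231Pa, both width and source list moved with the difference between shared and private regions. Among 231Pa regions at least as wide as the median, 38.6% of shared (27 of 70, interval 27.2 to 51.0%) and 25.7% of private regions (26 of 101, interval 17.6 to 35.4%) held a peak. Among narrower ones the shares were 26.2% (11 of 42, interval 13.9 to 42.0%) and 11.7% (15 of 128, interval 6.71 to 18.6%). In the list common to 231Pa and 231-D they were 37.2% (35 of 94) and 23.6% (21 of 89), and in the 231Pa-only list 16.7% (3 of 18) and 14.3% (20 of 140). Shared regions had the higher share in each of these 4 groups, but the intervals overlapped in all of them. With a reciprocal overlap of at least 50%, the shares were 29.1% for shared and 21.2% for private regions, and among the widest 50% of regions they were 34.0% and 29.9%. The part of width and list in the difference was not tested.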

How the data were processed

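H3K27ac ChIP-seq of 231Pa and MDA-MB-436_Luc2 (2 replicates and 1 input each) was used through 4 deposited lists of superenhancer positions, with the 231Pa_Luc+GFP list and the OCT-2 peaks of 231-D set beside them; the other 4 of the 10 deposited files were not used here. Tools listed in the submitters' processing notes were HOMER, bedtools, Bowtie and Bowtie2 2.2.2.6, with 2 builds, hg38 and hg19; the settings of the superenhancer calls and of the specific lists are not stated there. The authors' files hold start, end and a name with the number of merged calls. Starts were read as counted from 0 and are printed 1-based.

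The 231Pa lists are in hg19 per the file names. The MDA-MB-436_Luc2 lists name no build and were read as hg19: 50 pairs with 231Pa had an edge within 1 kb, against 4 pairs with the hg38 list of 231Pa_Luc+GFP. Of their regions, 7 end beyond the last GRCh38 gene of their chromosome, as do 2 of 231Pa and 0 of 231Pa_Luc+GFP. Arms were assigned by the middle of a region against a hand-written table of the hg19 centromere gaps; the nearest region lay 516 kb from a gap. The gene table is of GRCh38.p14, so no gene is named and no coordinates were converted.

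Overlaps were computed in Python 3.11.15 with numpy 2.4.6 and scipy 1.17.1, tested on simulated regions with planted overlaps, and gave the same counts as bedtools 2.31.1. No significance test was made, because each cell population has 1 merged list. Regions named are the 10 largest pairs by shared bases, the 10 widest private regions per line, the 3 arms with the largest difference in each direction, arms of 1 line alone and the 5 longest stretches; the 6 pairs of single calls, the cases nearest the overlap rule and the arms and chromosomes quoted for their shared part were chosen after their values were seen. Members, lists and comparisons were chosen with earlier results of these data known.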

Additional observations from a re-analysis of the deposited data

How the results depend on the processing

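Leaving out the sex chromosomes left every share, and each median width of shared and private regions, within its counting interval. Counting regions up to 10 kb apart as shared could change nothing, because the closest pair without overlap lay 23.5 kb apart. Joining close neighbours within a set could not act either. The smallest gaps, 24.6 kb in 231Pa and 12.7 kb in MDA-MB-436_Luc2, were wider than the joining distance. These settings therefore say nothing about how stable the results are. Requiring a reciprocal overlap of 50% lowered the shared part to 25.2% of 231Pa and 20.4% of MDA-MB-436_Luc2, the shared bases to 10.2 Mb and the gap between the common and the 231Pa-only list from 40.0 to 31.7 percentage points. With equal numbers of the widest regions, 12.1 Mb were shared and the width difference of MDA-MB-436_Luc2 was 18.7 kb. With the widest 50% of each set, 8.25 Mb were shared, the list gap was 33.3 points, the width differences were 7.37 kb (231Pa) and 23.5 kb (MDA-MB-436_Luc2), and shared and private 231Pa regions differed by 4.05 points in OCT-2 peaks. With the common lists alone, 45.4% of 231Pa regions were shared, with 9.69 Mb, a width difference of 9.71 kb and an OCT-2 difference of 14.6 points. With the specific lists alone, 3.80% of 231Pa and 6.19% of MDA-MB-436_Luc2 regions were shared, with 0.486 Mb, width differences of 2.73 and 37.6 kb over 6 shared regions and an OCT-2 difference of 2.19 points. These restrictions use fewer regions by construction. No difference in width, list share, OCT-2 share or arm share reversed its direction. The shares themselves, the shared bases and the build check have no sign and could not reverse.

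Leaving out chromosome 1, chosen after seeing the data, gave 30.4% of 231Pa and 27.4% of MDA-MB-436_Luc2. By share of bases, also chosen afterwards, 6p differed by 2.44 points instead of 4.61, less than 10p with 3.18 points and than 19p, which held 0.323% of 231Pa and 2.92% of MDA-MB-436_Luc2 bases. Read as hg38 against 231Pa_Luc+GFP, 56 regions of MDA-MB-436_Luc2 overlapped, against 119 read as hg19 against 231Pa. No paired analysis was possible because the lists are merged over replicates, and for the same reason no replicate could be left out. The lists hold no score, so the authors' calling threshold could be varied by width alone.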
